A study of Mus musculus with 27 samples.

Results

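The KD of *Irf2bp2* was compared with its control in mouse erythroleukaemia (MEL) cells by RNA-Seq, and the change of every gene is described here. The comparison holds 4 of the 27 samples of the series. They were chosen as the libraries whose raw counts stand in the *Irf2bp2* table, and they are 2 controls labelled Irf2bp2 WT and 2 libraries labelled Irf2bp2 KD-sh1. MEL cells are an established mouse line of virus-transformed erythroid progenitors that can be driven to make haemoglobin. Both groups come from this line, and their labels name no further allele, no agent and no time point. The KD was made with a lentiviral vector that carried 1 short hairpin RNA, sh1, and the methods of the study give non-targeting hairpins as controls, so that the libraries called WT are controls of transduction. Because both KD libraries carry the same hairpin, they alone cannot tell effects of the *Irf2bp2* fall from effects of the hairpin on other RNAs. In cells with this hairpin the study measured late erythroid genes by qPCR after adding back *Irf2bp2* cDNA. It reports that wild-type cDNA restored their repression, and a mutant unable to bind ETO2 did so partly or not at all. According to the methods the replicates are independent biological samples, and 2 in a group set the precision of every error given below. The study asked how the co-repressors ETO2, encoded by *Cbfa2t3*, and IRF2BP2 act on erythroid genes, and a list of their binding sites in MEL cells was deposited with the RNA data.

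IRF2BP2 is a nuclear co-factor that carries a zinc finger and a RING domain and was named for its binding to the interferon regulatory factor IRF2. It acts at DNA through other proteins that bind there. In erythroid cells one such partner is ETO2, a co-repressor in the LDB1 complex, in which the transcription factors GATA1 and TAL1 contact a GATA sequence next to an E-box. Erythroid maturation brings a switch from growth to the making of haemoglobin, with loss of surface receptors and rebuilding of the cytoskeleton, and the groups of genes below were ordered after these functions.

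Between 44519414 and 52919258 reads were counted in the 4 libraries, so that 3 counts, the floor used here, correspond to 0.058 to 0.0676 CPM (counts scaled to library size). The 10 largest genes took 4.83 to 5.45% of the counts of a library. Replicates correlated across genes with r of 0.9976 in the controls and 0.9979 in the KD. Control replicate 2 stood apart in the number of genes with a count, which was 17560 against 15065 to 15234 in the other libraries. Of these genes 2054 had counts in that library alone, 1335 of them with 1 count, and together they held 3511 counts, against 182 to 241 such genes in each other library. The markers of the erythroid line were present in all libraries. *Gata1*, the master regulator of the lineage, stood at 408 and 453 CPM in the controls, and *Klf1*, an activator of globin genes, at 157 and 166 CPM. The defining myeloid markers *Mpo* and *Elane* and the B-cell marker *Ms4a1* had between 0 and 4 counts in a library.

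In the RNA-Seq counts the knocked-down RNA moved down by a small step. The study assessed its KDs by qPCR or western blot, and those measurements are not part of these data. *Irf2bp2* had 116 and 119.7 CPM in the controls, while the KD libraries had 92.2 and 94.9 CPM. The groups did not overlap, which holds for 74.1% of all tested genes. On the log2 scale the change was -0.33, short of the limit of 0.5. Its standard error was 0.08 and its adjusted p 0.00266 (quasi-likelihood test of edgeR, p adjusted after Benjamini and Hochberg). Of the 9 tested genes of the IRF2BP family and the interferon regulatory factors, 1 passed both limits. The paralogues *Irf2bp1* and *Irf2bpl* had log2 fold changes of 0.14 and -0.22, and *Irf2* of 0.21, with adjusted p of 0.165, 0.0856 and 0.101. *Irf7*, which drives the second wave of interferon production, was the 1 that fell, from 8.44 and 14.3 CPM to 2.57 and 2.07 CPM (log2 fold change -2.30, standard error 0.21, adjusted p = 2.25e-07). Its 4 values did not overlap between the groups, which holds for 74.1% of all tested genes. The partners of IRF2BP2 in its complex had *Cbfa2t3* at a log2 fold change of -0.06, *Ldb1* at -0.02 and *Ncor1* at 0.08, none past a limit. Among 17 genes of the ETO family, the NCOR and the LSD1 co-repressors, 2 fell and none rose. *Rcor1*, which links LSD1 to its histone substrate, was among them, at -0.65.

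The table lists 18519 genes, of which 12329 passed the filter on low counts and were tested. Genes with an adjusted p of at most 0.05 whose log2 fold change was 0.5 or further from 0 were taken as changed. By these limits 2778 genes changed, 22.5% of those tested. Lowered genes were the larger class, with 1535 (12.5%) against 1243 raised (10.1%). With the median of all tested genes at -0.01, the median log2 fold change was 0.72 over the raised genes and -0.82 over the lowered. A change of at least 2-fold was reached by 341 raised and 526 lowered genes, one of at least 4-fold by 80 and 85, and one of at least 8-fold by 30 and 16. So the lowered genes were more numerous at 2-fold and the raised at 8-fold. In 2776 of the changed genes the control and KD libraries did not overlap, which holds for 74.1% of all genes tested. The 2 that overlapped, the small RNA Rn4.5s and the antisense transcript *Ppifos*, were low and passed narrowly, with adjusted p of 0.0413 and 0.0413. Changed genes were of moderate level, with a median control level of 22.8 CPM for raised and 18.6 CPM for lowered genes against 31.6 CPM for all genes tested. The genes on the 46 lists described below number 1916, and 239 of them rose and 255 fell. Each count of a list is to be read beside the 10.1% raised and 12.5% lowered of all tested genes.

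**Figure D1:**
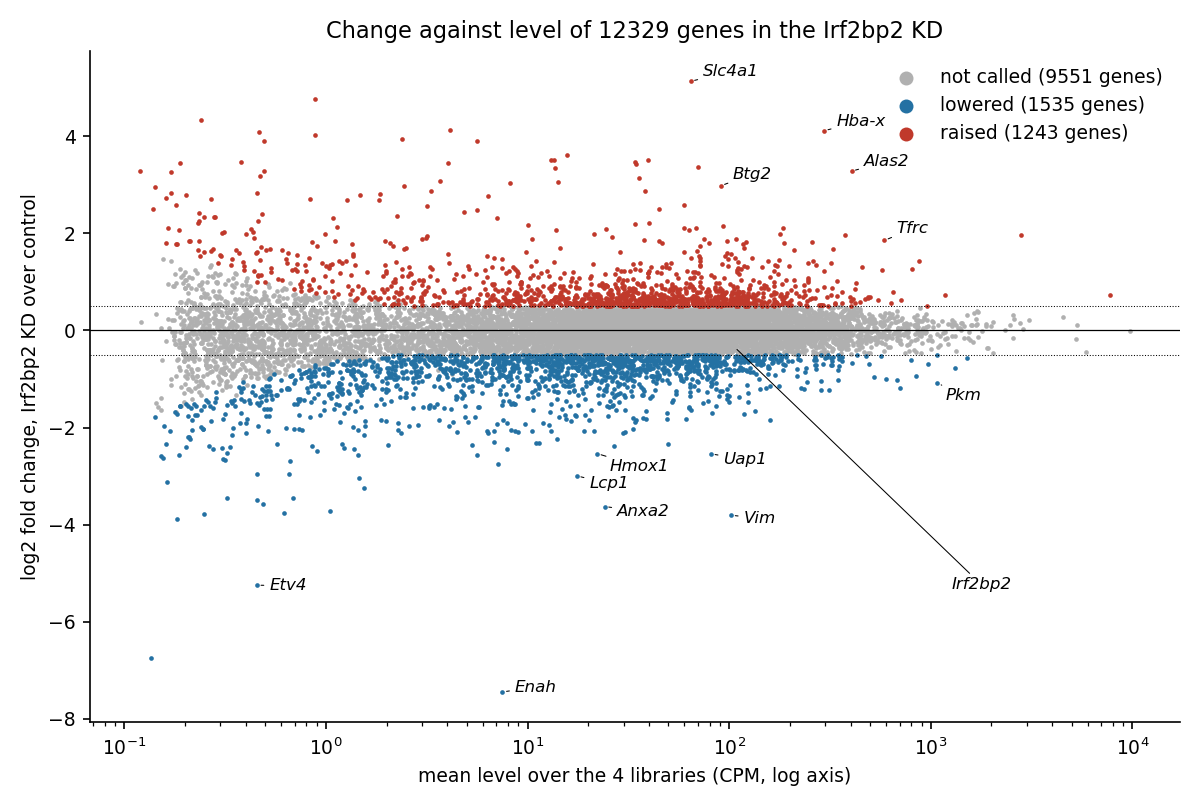
Log2 fold change of KD over control (y axis) against the mean level over the 4 libraries in CPM (x axis, log scale) for the 12329 tested genes, with raised genes in red, lowered genes in blue and the others in grey; dotted lines mark the fold limit. The 1535 lowered genes are spread over the range of levels, *Irf2bp2* sits inside the fold limit, and *Slc4a1*, *Vim* and *Enah* mark the ends of the cloud.

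Sequences are shown first for IRF2BP2 sites whose nearest gene is among those the results turn on, picked after the values were seen. Coordinates are those of mm9, the build of the site list, and each stretch is read on the strand in brackets, 12 bases to each side of the motif. In the first 5 sites capitals mark the composite E-box/GATA motif of the LDB1 complex. The next 5 carry a GATA motif in capitals (AGATAA or TGATAA) and the last 3 the AP-1 motif (TGAGTCA or TGACTCA), both searched on either strand within 100 bp of the centre of a site. Of all 11469 IRF2BP2 sites, 12.6% hold the composite motif, 55.4% a GATA motif and 12.9% an AP-1 motif, the classes overlapping, so a match describes the site and nothing more.
*Btg2*, chr1:135989505-135989545 (+): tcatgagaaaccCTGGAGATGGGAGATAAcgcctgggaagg
*Klf1*, chr8:87425197-87425236 (+): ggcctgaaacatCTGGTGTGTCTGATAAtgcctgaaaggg
*Tspan33*, chr6:29651306-29651346 (+): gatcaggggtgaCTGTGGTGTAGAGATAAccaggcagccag
*Mgst3*, chr1:169314471-169314509 (+): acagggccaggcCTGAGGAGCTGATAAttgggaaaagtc
*Bmpr2*, chr1:59887240-59887280 (+): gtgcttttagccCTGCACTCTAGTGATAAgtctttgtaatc
*Abcb10*, chr8:126512734-126512763 (-): gctaagggagaaAGATAAgaaaagctggca
*Gata1*, chrX:7548616-7548645 (+): ctgggaaggcatAGATAAgggaatcagcgg
*Trim10*, chr17:37006344-37006373 (-): gtgtggggactcAGATAAggctcttgagct
*Nfe2l2*, chr2:75543184-75543213 (-): gccggtggagcgAGATAAagcgggcaaggt
*Uap1*, chr1:172107106-172107135 (+): agtcacatgatgTGATAAagctacggataa
*Vim*, chr2:13495237-13495267 (+): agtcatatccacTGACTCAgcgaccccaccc
*Hmox1*, chr8:77607895-77607925 (-): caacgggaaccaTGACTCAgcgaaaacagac
*Trib3*, chr2:152173005-152173035 (-): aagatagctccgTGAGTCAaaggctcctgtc

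The first site, nearest to *Btg2*, runs from chr1:135989273-135989966, lies 13832 bp upstream of the transcription start site (TSS) and was 34.0-fold enriched over IgG. It belongs to the class shared with ETO2, for which the list gives a single fold and does not name the antibody. The sites of *Klf1* (666 bp upstream, 8.86-fold), *Tspan33* (7045 bp into the gene, 31.5-fold), *Mgst3* (9427 bp into the gene, 13.5-fold), *Bmpr2* (65724 bp into the gene, 18.5-fold), *Abcb10* (5721 bp upstream, 22.4-fold), *Gata1* (6587 bp into the gene, 61.4-fold), *Trim10* (131 bp upstream, 11.8-fold), *Nfe2l2* (416 bp upstream, 18-fold) and *Vim* (262 bp upstream, 7-fold) are also shared. Those of *Uap1* (2006 bp upstream, 5.20-fold), *Hmox1* (9594 bp upstream, 14.4-fold) and *Trib3* (3250 bp upstream, 23-fold) are of the class that IRF2BP2 occupies without ETO2. The first 4 genes and *Abcb10*, *Gata1* and *Trim10* rose, and the other 6 fell. Among these picked sites, those with the composite or the GATA motif lie near genes of either direction. The AP-1 sites picked, of *Vim*, *Hmox1* and *Trib3*, all lie near lowered genes.

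The largest rises, by fold, belonged to red cell and to poorly expressed genes. Among genes of at least 1 CPM on average, *Slc4a1*, the anion exchanger band 3, led with 2.85 and 4.30 CPM in the controls and 111 and 139.7 CPM in the KD, 35.04-fold higher. *Hba-x*, the embryonic zeta globin, rose 17.3-fold, from 22.9 and 41.6 to 572 and 545 CPM. In both genes the 2 controls differed among themselves by less than the distance to the KD libraries. *Cacna1g*, a T-type calcium channel subunit, rose from 0.343 and 0.542 to 7.44 and 8.14 CPM, *Mybpc3*, a myosin-binding protein of heart muscle, from 0.707 and 0.703 to 10.2 and 10.9 CPM and *Acp5*, tartrate-resistant acid phosphatase, from 5.45 and 7.43 to 67.9 and 78.4 CPM. *Cgn*, a protein of tight junctions, rose from 5.90 and 5.90 to 56.98 and 69.6 CPM. The others of the 12 were 6030468B19Rik, *Spef1*, *Apol10a*, *Apol11a*, BC021767 and *Tg*, with log2 fold changes between 3.45 and 3.93. *Apol10a* and *Apol11a* belong to a family of similar genes between which reads may be split. The 12 were chosen among genes whose control and KD libraries did not overlap, which holds for 74.1% of all genes tested.

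Large rises in absolute level were found in other genes as well. The adult beta-globin genes *Hbb-b2* and *Hbb-bt*, which the table counts as 1 entry, rose from 841 and 1438 CPM in the controls to 4237 and 4676 CPM. *Sptb*, beta-spectrin of the red cell skeleton, *Prdx2*, a peroxidase of red cells, *Tfrc*, the transferrin receptor, and *Alas2*, the first enzyme of haem synthesis, rose by less in CPM. *Tfrc* rose 3.61-fold from 267 and 244 to 868 and 976 CPM. On the authors' RPKM scale, which is per length, *Alas2* went from a mean of 39.6 to 371 and *Hba-x* from 54.7 to 908, so that the embryonic globin stood above *Alas2* in both groups.

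**Figure D2:**
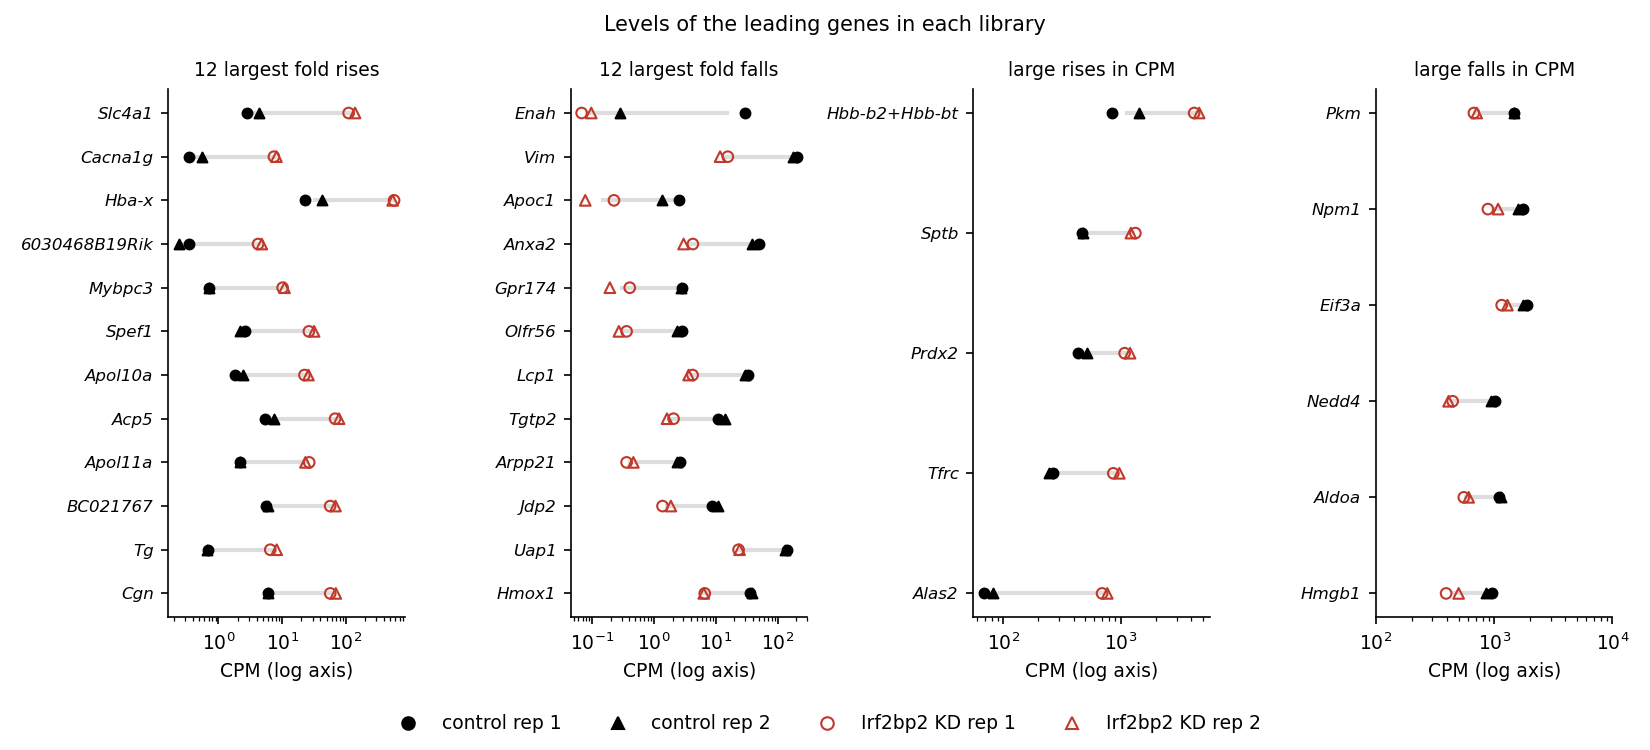
Levels in CPM (x axis, log scale) of the 12 genes with the largest fold rise, the 12 with the largest fold fall and genes with large rises and falls in CPM, with filled symbols for the control and open symbols for the KD libraries and a grey line between the group means. Replicates lie close together in nearly all genes; in *Enah* the control libraries stand at 29.6 and 0.281 CPM.

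The 12 genes with the largest fold falls had various functions. *Vim*, the intermediate filament protein vimentin, fell from 203 and 179 CPM to 15.6 and 11.7 CPM (13.99-fold, log2 fold change -3.81, standard error 0.12, adjusted p = 1.61e-12). *Anxa2*, a calcium-dependent membrane binder, fell from 50.6 and 38.7 to 4.26 and 3.02 CPM and *Lcp1*, the leukocyte actin bundler L-plastin, from 32.8 and 29.6 to 4.21 and 3.63 CPM. All 3 had both KD libraries far below both controls, though the 12 were chosen among genes whose groups did not overlap. *Uap1*, which makes UDP-N-acetylglucosamine for glycosylation, fell 5.83-fold from 144 and 134 to 23.3 and 24.3 CPM. *Hmox1*, the haem oxygenase that breaks haem down, fell 5.80-fold from 36.3 and 39.2 to 6.63 and 6.40 CPM. *Jdp2*, a repressor of AP-1, fell from 8.55 and 10.7 to 1.37 and 1.88 CPM. These falls left RNA that was still measurable, above 1 CPM in every KD library.

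Other genes among the 12 were low. *Apoc1*, *Gpr174*, *Olfr56* and *Arpp21* stood between 1.32 and 2.85 CPM in the controls and between 0.0773 and 0.464 CPM in the KD libraries, and *Tgtp2* is described with the interferon-stimulated genes. *Enah*, an actin regulator of cell protrusions, had the lowest fitted log2 fold change, -7.44, but it rests on 1 library. Its counts were 1465 and 14 in the controls and 3 and 5 in the KD. Without control replicate 1 the log2 fold change was -1.72 and the gene was no longer called, nor was it without KD replicate 1, at -7.23, or in DESeq2 with a prior on the fold change, at -0.28.

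By absolute level the deepest falls were in abundant genes. *Pkm*, pyruvate kinase, went from 1469.6 and 1465 CPM in the controls to 673 and 711 CPM, and *Aldoa*, aldolase, from 1086 and 1140.2 to 553 and 607 CPM. *Npm1*, a nucleolar chaperone of ribosome assembly, fell from 1745 and 1594 to 884 and 1078 CPM, *Nedd4*, a ubiquitin ligase, from 1008 and 940.1 to 445 and 411 CPM and *Hmgb1*, a chromatin protein, from 963 and 852 to 391.7 and 499.8 CPM. The groups were separate in each of these genes, as in nearly all changed genes. *Eif3a*, the scaffold of the initiation factor eIF3, had a log2 fold change of -0.56, and was short of the limit, at -0.48, without KD replicate 1.

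In the cytoskeleton list the falls stood above the share of all genes. Of 51 tested genes 15 fell and 5 rose, beside 12.5% lowered and 10.1% raised of all tested genes. The rises were near that share, and the median of the list was 0.04, near that of all genes. Besides *Vim*, *Anxa2* and *Lcp1* the members that fell included *Lgals1*, a galactose-binding lectin, at -1.41, *Capg*, which caps actin filaments, at -0.85, *Wasf1*, an activator of actin branching, at -1.001, *Tln1*, which couples integrins to actin, at -0.73, *Msn*, which ties membrane to cortex, at -0.62 and *Flna*, an actin cross-linker, at -0.52. *Anxa5* and *Anxa6*, relatives of *Anxa2*, were at -0.56 and -1.01, and the tubulin genes *Tuba8*, *Tubb2a* and *Tubb2b* between -0.996 and -0.64. The cytoplasmic actins *Actb* and *Actg1* did not pass the limits, at 0.11 and -0.12. *Tuba4a*, an alpha-tubulin, rose from 299 and 300.4 to 539 and 540.0 CPM, and the lamin genes *Lmna* and *Lmnb2* rose by 0.73 and 0.56 on the log2 scale. *S100a4*, a calcium-binding protein of motile cells, had low values but rose from 0.343 and 0.622 to 1.397 and 2.07 CPM.

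Genes of adhesion and of leukocyte surfaces changed in both directions, to be read beside the 10.1% raised and 12.5% lowered of all tested genes. Among 32 integrins, adhesion molecules and tetraspanins 6 rose and 5 fell (median 0.10), the falls near that share. *Itgal*, the alpha chain of LFA-1, fell from 25.01 and 22.2 to 7.73 and 6.32 CPM, *Selplg*, the ligand of P-selectin, from 33.9 and 42.5 to 19.5 and 19.9 CPM, and *Cd44*, a receptor of hyaluronan, had a log2 fold change of -0.82. *Tspan33*, a tetraspanin of erythroid cells, rose from 86.8 and 116 to 317 and 324 CPM. *F11r*, the junctional adhesion molecule JAM-A, rose from 1.39 and 1.26 to 4.62 and 5.30 CPM. Of 13 tested myeloid markers 5 fell and 1 rose (2 without control replicate 2), with 16 more below the filter. *Fcgr3*, *Fcgr2b* and *Fcgr1*, receptors of immunoglobulin G, were at log2 fold changes of -2.45, -1.60 and -1.16, and *Tyrobp*, the signalling adaptor DAP12 of other myeloid receptors, at -1.46. Of 16 tested lymphoid markers, with 17 more below the filter, 7 fell. The 1 that rose, *Cd7*, had 3 and 4 counts in the controls and was not called when any 1 of the 4 libraries was left out, in DESeq2 or with another filter on low counts. *Thy1*, a surface glycoprotein of T cells, fell from 21.5 and 22.8 to 6.45 and 6.50 CPM, and *Ptprc*, the phosphatase CD45 of all leukocytes, from 18.4 and 19.5 to 8.45 and 8.87 CPM.

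The summed level of the tested myeloid markers was 236 and 261 CPM in the controls and 258 and 265 CPM in the KD, and that of the lymphoid markers 822 and 846 against 768 and 806 CPM. Of 29 listed myeloid markers 7, and of 33 listed lymphoid markers 15, had no more than 3 counts in any library. In RNA of a whole culture a smaller number of cells of a type and less RNA in each cell cannot be told apart, and the part of rare other cells in these falls was not tested.

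**Figure D3:**
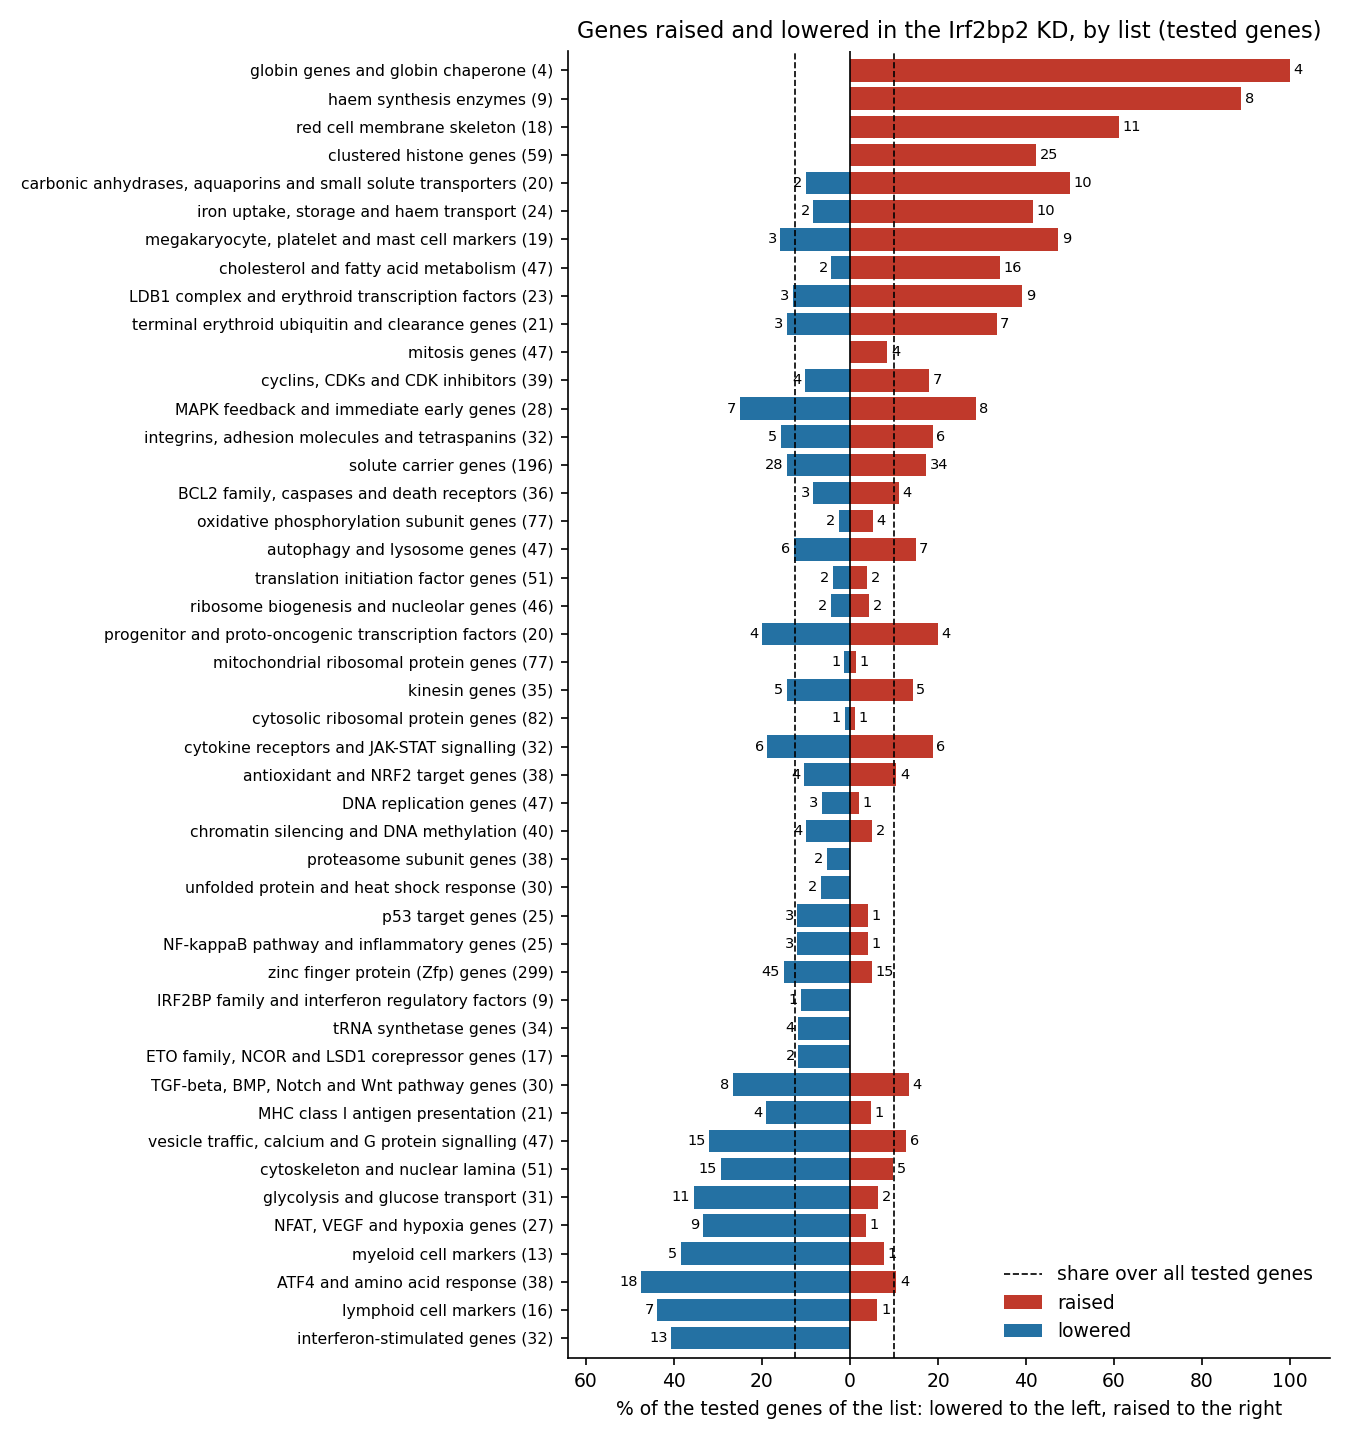
Share of the tested genes of each of 46 lists, in percent (x axis), that rose (red, to the right) or fell (blue, to the left), with the number of genes at each bar, the number tested in brackets and dashed lines at the shares over all tested genes (10.1 and 12.5%). Lists are ordered by the balance of both; globin and haem genes lie at the top with 4 of 4 and 8 of 9 raised, and interferon-stimulated genes at the bottom with 13 of 32 lowered.

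Of 32 tested interferon-stimulated genes 13 fell, none rose and 19 were not called, with a median of -0.48, beside 12.5% of all genes lowered. Without control replicate 2, 11 fell and 2 rose. Among the RNA sensors *Ddx58*, encoding RIG-I, was at 18.04 and 20.1 CPM in the controls and 4.42 and 3.25 CPM in the KD (4.99-fold lower, adjusted p = 1.45e-09). *Ifih1*, encoding the sensor MDA5, and *Dhx58*, encoding its relative LGP2, had log2 fold changes of -1.35 and -1.93. In each sensor both KD libraries were below both controls, and in nearly all changed genes the groups did not overlap. The family of the oligoadenylate synthetases, antiviral proteins, had *Oas2* at -2.08, *Oas1a* at -1.57, *Oasl2* at -1.47, *Oas1b* at -0.92 and *Oasl1* at -0.76. Among the interferon-induced GTPases, *Tgtp2*, whose reads may be shared with the near-identical *Tgtp1*, fell from 10.7 and 14.1 to 2.07 and 1.62 CPM, *Gbp3* was at -1.19 and *Irgm1* at -0.85. *Parp9*, an interferon-induced gene of the PARP family, was at -1.05.

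The receptors of interferon gamma fell too. *Ifngr1* went from 37.3 and 37.7 CPM to 17.3 and 15.5 CPM and *Ifngr2* from 15.5 and 16.1 to 7.78 and 7.62 CPM. The type I interferon receptor genes *Ifnar1* and *Ifnar2* were at 0.01 and -0.27 and were not called. Among 21 tested genes of antigen presentation by MHC class I, 4 fell and 1 rose, beside 12.5% lowered and 10.1% raised of all tested genes. *B2m*, the light chain of class I molecules, had a log2 fold change of -0.79, *H2-T24* fell from 39.2 and 50.02 to 26.3 and 24.8 CPM, and *Psmb8*, a catalytic subunit of the immunoproteasome, from 100.1 and 105 to 70.4 and 64.8 CPM. *Erap1*, a trimming peptidase, had a log2 fold change of 0.61 but fell short of the limits without control replicate 2 (0.40) or KD replicate 1 (0.51). *H2-T22*, a class I gene outside the classical set, was at -1.10 and fell short without control replicate 1 (-0.66) or KD replicate 2 (-0.88). Of 25 genes of the NF-kappaB pathway 3 fell, near the share of all tested genes, and 1 rose (median -0.07), but only 1 fell without control replicate 1, without either KD replicate or in DESeq2. *Rel*, a subunit of NF-kappaB, fell from 3.54 and 3.21 to 1.31 and 1.31 CPM, and *Il1b*, which rose, reached only 1.31 and 1.35 CPM.

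Many genes of the amino acid response were lowered. Of 38 tested members of the ATF4 list 18 fell, 4 rose and the median was -0.43. *Chac1*, which degrades glutathione, fell from 21.9 and 24.5 to 4.801 and 5.03 CPM (4.71-fold, adjusted p = 2.24e-10). *Trib3*, a pseudokinase that restrains ATF4, fell from 54.2 and 61.7 to 16.4 and 16.8 CPM, and *Ddit3*, encoding CHOP, from 121 and 138 to 52.96 and 55.7 CPM. The controls and the KD libraries were separate in these genes, as in nearly all changed genes. *Atf4* itself, the transcription factor at the head of the response, was close to the limit with 369 and 356 CPM in the controls and 246 and 263 CPM in the KD, a log2 fold change of -0.51.

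Enzymes and transporters of the same list followed. *Psph* and *Phgdh*, enzymes of serine synthesis, were at log2 fold changes of -0.87 and -0.52, *Pycr1* and *Aldh18a1*, of proline synthesis, at -0.83 and -0.54, and *Mthfd2*, of the mitochondrial folate cycle, at -0.70. The amino acid transporters *Slc1a4*, *Slc3a2* and *Slc38a2* were at -1.004, -0.60 and -0.52. *Asns*, asparagine synthetase, did not pass, at -0.08 with adjusted p = 0.492. The stress genes *Nupr1*, *Sesn2* and *Ddit4* were at -1.29, -0.94 and -0.71. Members that rose were *Eif2ak1*, the haem-regulated kinase of eIF2alpha, from 60.9 and 64.8 to 104 and 116 CPM, *Ppp1r15a* and *Ppp1r15b*, which direct the phosphatase of eIF2alpha, at 0.91 and 0.65, and *Slc6a9*, a glycine transporter of erythroid cells, from 37.3 and 48.6 to 96.98 and 98.9 CPM. Of the 34 tRNA synthetase genes 4 fell, near the 12.5% of all tested genes, and none rose (median -0.17). The count that rose moved without control replicate 1 or KD replicate 2. With no limit on the fold change 16 fell and 2 rose, beside 2906 and 2904 of all 12329 tested genes. *Sars*, for serine, fell from 371 and 399 to 187 and 186 CPM, and *Yars*, *Dars* and *Tars* were at -0.65, -0.62 and -0.50. In the list of the unfolded protein and heat shock responses 2 of 30 genes fell (4 without KD replicate 2) and none rose (1 without KD replicate 1; median -0.09), with the chaperone *Hspa4l* at -0.77 and the heat shock factor *Hsf2* at -0.60.

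Enzymes at several steps of glycolysis were lowered. Of 31 tested genes 11 fell and 2 rose, and the median was -0.14. *Slc2a1*, the glucose transporter GLUT1, fell from 76.97 and 73.8 to 35.1 and 42.9 CPM, and *Hk2*, a hexokinase, from 164 and 148 to 87.1 and 88.7 CPM. After *Aldoa*, given above, came *Pgk1* at a log2 fold change of -0.70, *Pgam1* at -0.67, *Eno1* at -0.52, *Pkm* at -1.09 and *Ldha*, lactate dehydrogenase, at -0.69. *Gapdh* and *Tpi1*, enzymes of the middle of the pathway, were not called, at -0.03 and -0.32. *Pdk1*, which closes the entry of pyruvate into mitochondria, was at -0.56. The member with the larger rise, *Bpgm*, makes 2,3-bisphosphoglycerate, the red cell's regulator of oxygen release, and went from 17.7 and 20.995 to 36.7 and 43.1 CPM.

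The list of NFAT, VEGF and hypoxia genes shares members with this one and showed 9 falls and 1 rise among 27 tested (median -0.15). *Bnip3*, a mitochondrial receptor of autophagy, fell from 105 and 92.1 to 36.6 and 47.4 CPM, and *Ankrd37* from 20.2 and 18.1 to 8.07 and 11.6 CPM. *Car9*, an extracellular carbonic anhydrase, was at -0.93, the prolyl hydroxylases of collagen *P4ha1* and *P4ha2* at -0.87 and -0.58, and *Ndrg1* at -0.73. *Vhl*, whose product marks HIF proteins for degradation, rose from 20.9 and 21.2 to 29.95 and 32.9 CPM. *Hif1a* itself was at -0.50 (adjusted p = 1.06e-04), not called.

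Genes of MAPK feedback and the immediate early response moved in both directions. Of 28 tested genes of this list 7 fell and 8 rose. *Etv5*, an ETS factor downstream of ERK, fell from 27.9 and 20.6 to 8.25 and 5.53 CPM. Its relative *Etv4* had 53 and 35 counts in the controls and 2 and 0 in the KD libraries, a ratio of 42.6 (exact 95% interval 11.4 to 357, counting error only). Both KD libraries are under the floor of 3 counts. The inhibitors *Spry1*, *Spry4* and *Spred1* were at log2 fold changes of -1.21, -0.99 and -1.01, *Dusp6*, the phosphatase of ERK, at -0.81 and *Egr1*, an early growth response factor, at -1.06. All 7 had KD libraries below the controls, but the groups were without overlap in 2776 of all 2778 changed genes and in 74.1% of all tested genes.

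In the other direction *Btg2*, an anti-proliferative factor, rose 7.88-fold from 19.7 and 21.2 to 145 and 177 CPM (adjusted p = 2.40e-12). *Dusp1*, a phosphatase of stress kinases, rose from 4.02 and 4.94 to 17.04 and 16.2 CPM, and *Junb* and *Jund*, AP-1 subunits, by 1.22 and 1.12 on the log2 scale. In cytokine signalling 6 of 32 genes rose and 6 fell, beside 10.1% raised and 12.5% lowered of all tested genes. *Epor*, the erythropoietin receptor, rose from 157 and 173 to 328 and 328 CPM, and of the targets and brakes of its signal *Cish* rose from 23.8 and 29.6 to 64.9 and 67.3 CPM and *Socs3* from 3.84 and 4.13 to 10.9 and 11.1 CPM. *Kit*, the stem cell factor receptor of progenitors, fell from 3.25 and 3.13 to 1.58 and 1.66 CPM, and *Jak2*, the kinase bound to the erythropoietin receptor, had a log2 fold change of -0.71.

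Several receptors of the TGF-beta and BMP family were lowered and 2 inhibitory SMADs raised. In the list with the Notch and Wnt pathways 8 of 30 genes fell and 4 rose (median 0.02), and without control replicate 1 the number that fell was 5. *Bmpr2*, the type II BMP receptor, fell from 53.4 and 45.1 to 12.4 and 10.8 CPM (4.25-fold). *Bmpr1a*, *Tgfbr1* and *Eng*, further receptors of the family, were at -0.62, -0.56 and -1.14, while *Acvr2b*, a receptor of activins, was at 0.65. *Smad5*, a carrier of the BMP signal, was at -0.60. *Smad7* and *Smad6*, which block these receptors, rose by 1.22 and 0.84 on the log2 scale. *Lfng*, a sugar transferase that tunes Notch receptors, rose from 23.6 and 26.96 to 47.4 and 51.4 CPM, and *Tcf7l2*, a Wnt effector, fell from 16.2 and 15.5 to 6.47 and 7.37 CPM.

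Genes of G protein, calcium and vesicle signalling gave 15 falls and 6 rises among 47 (median -0.20). *Gng2*, a G protein gamma subunit, fell from 10.8 and 9.71 to 2.59 and 2.20 CPM, and *Rgs18*, a regulator of G protein signalling in platelets, from 18.7 and 15.2 to 4.06 and 4.04 CPM. *Arhgdib*, which holds small GTPases inactive in blood cells, was at -1.85, *P2rx7*, an ATP-gated channel, at -1.62 and the chemokine receptor *Cxcr4* at -1.29. *P2rx1*, a relative of *P2rx7*, rose from 17.8 and 21.2 to 38.1 and 33.9 CPM.

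Of 299 tested genes named as zinc finger proteins (Zfp) 45 fell and 15 rose, with a median of -0.11, beside 12.5% lowered and 10.1% raised of all tested genes. *Zfp420* fell from 12.02 and 12.6 to 4.35 and 4.21 CPM and *Zfp142* rose from 65.3 and 61.7 to 126 and 105 CPM.

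Many genes of the erythroid programme rose. All 4 tested globin genes, 8 of 9 haem synthesis enzymes and 11 of 18 genes of the red cell membrane skeleton rose and none fell, with medians of 3.44, 1.33 and 0.74. *Hba-a1*, adult alpha globin, had few counts, 1 and 4 in the controls and 22 and 66 in the KD, and its reads can be split with the near-identical *Hba-a2*. The haem enzyme that did not pass was *Alas1*, the form of other tissues, at -0.15. *Alad*, the second enzyme, rose from 142 and 167 to 585 and 615 CPM, and *Cpox* was at the limit, at 0.50. Among iron genes, 10 of 24 rose and 2 fell. Next to *Tfrc* these were the mitochondrial carriers *Abcb10*, from 156 and 157 to 483 and 518 CPM, and *Slc25a37*, mitoferrin, at 1.36.

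The transcription factors of the lineage had a smaller median change than globin, haem and membrane genes. Of 23 tested factors 9 rose and 3 fell, with a median of 0.36. *Tal1* rose from 148 and 156 to 385 and 388 CPM, *Klf1* to 329.7 and 333 CPM and *Gata1* to 652 and 677 CPM, log2 fold changes of 1.34, 1.04 and 0.63. *Zfpm1*, the co-factor FOG1, and *Nfe2*, an activator of the globin locus, were at 0.79 and 0.68. *Cbfb*, the partner of RUNX factors, fell from 44.1 and 35.1 to 14.4 and 12.97 CPM, *Tcf12*, an E-box partner of TAL1, from 122 and 111 to 54.7 and 54.8 CPM, and *Bcl11a*, a silencer of fetal globin, was at -0.77. In progenitor factors the balance was even, with 4 of 20 up and 4 down. *Myb*, which keeps progenitors dividing, fell from 319 and 291 to 181 and 159 CPM and *Meis1* from 35.2 and 31.7 to 12.4 and 11.4 CPM, whereas *Spi1*, the myeloid factor PU.1, rose from 80.97 and 84.8 to 118 and 128 CPM.

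Genes of clearance and of solute transport in maturing red cells were raised in part. *Trim10*, a ubiquitin ligase of erythroid cells, rose from 43.4 and 49.2 to 156 and 185 CPM among 7 raised and 3 lowered of 21 clearance genes, and *Ube2h*, a ubiquitin-conjugating enzyme, fell from 48.2 and 48.8 to 22.97 and 22.4 CPM. Among 20 carbonic anhydrases, aquaporins and small solute transporters 10 rose and 2 fell. *Car2*, carbonic anhydrase of the red cell, rose by 1.23 on the log2 scale and *Slc22a4*, a carrier of ergothioneine, from 4.40 and 5.32 to 14.8 and 14.9 CPM. Across all 196 tested solute carriers 34 rose and 28 fell, beside 10.1% raised and 12.5% lowered of all tested genes. The falls were near that share. *Slc45a3*, at the lower end, fell from 53.1 and 54.6 to 16.002 and 13.3 CPM.

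Several megakaryocyte and platelet genes rose. Of 19 tested markers 9 rose and 3 fell (median 0.45). *Vwf*, von Willebrand factor, rose from 1.33 and 2.21 to 14.2 and 14.9 CPM, *Ppbp*, a platelet chemokine, from 3.74 and 6.94 to 17.9 and 27.05 CPM, and *Itga2b*, the alpha chain of the fibrinogen receptor, from 100.2 and 101 to 220.4 and 215 CPM. *Gp9*, *Gp1bb*, *Gp1ba* and *Gp5*, the subunits of the von Willebrand factor receptor, had log2 fold changes of 1.04, 0.83, 0.80 and 0.67, and *Pf4*, platelet factor 4, of 0.99. The summed level of the list went from 1164 and 1203 CPM to 1493 and 1569 CPM. *Rab27b*, a GTPase of platelet granule release, fell from 2.10 and 1.81 to 0.676 and 0.696 CPM, the deepest fall of the list, and *Srgn*, the granule proteoglycan serglycin, from 72.1 and 75.2 to 48.3 and 54.7 CPM. Of the mast cell genes *Hdc*, which makes histamine, was at -0.56, and *Cpa3* had no more than 3 counts in any library. Of the 29 deposited genes of this list 8 were at or under that count throughout, and the part of other cell types in these rises was not tested.

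Of 47 tested genes of cholesterol and fatty acid metabolism 16 rose, 2 fell and 29 were not called, with a median of 0.32. Without control replicate 1 or KD replicate 2, 1 fell. *Ebp*, a sterol isomerase late in the pathway, rose from 52.5 and 56.2 CPM to 84.3 and 88.5 CPM (1.59-fold, adjusted p = 5.47e-06). Along the synthetic pathway *Hmgcs1* was at a log2 fold change of 0.60, *Mvk* at 0.60, *Mvd* at 0.73, *Idi1* at 0.66, *Fdps* at 0.53, *Fdft1*, the first enzyme committed to sterols, at 0.59, *Ebp* at 0.67 and *Dhcr7* at 0.62. These steps lay within 0.53 to 0.73. *Srebf2*, the transcription factor that controls them, was at the limit, at 0.50. For fatty acids *Fasn*, the synthase, rose by 0.73 on the log2 scale, while *Acly*, which makes cytosolic acetyl-CoA, fell from 423 and 416 to 286 and 271 CPM. *Acaca*, the next enzyme, was at -0.503, and its log2 fold change was short of the limit with size factors in place of TMM, at -0.499, with no filter on low counts, at -0.491, in DESeq2 without and with a prior, at -0.494 and -0.484, without control replicate 1, at -0.41, and without KD replicate 2, at -0.44.

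The histone genes that rose lay in 3 classes. Of 59 tested genes of the histone clusters 25 rose and none fell, with a median of 0.46, but without KD replicate 2 and in DESeq2 the number that rose was 16. All 14 genes of histone H2A rose, with log2 fold changes from 0.80 to 1.13, and so did 8 of 12 genes of H4 and 3 of 5 of H1. Of the 18 genes of H2B and the 10 of H3 none was called, with medians of 0.28 and 0.35. The summed level of the H2A genes was 215 and 231 CPM in the controls and 439 and 390 CPM in the KD, that of the H2B genes 85.8 and 76.4 against 90.2 and 86.7 CPM. Genes of 1 class are near-identical and can share reads, so the 14 are not independent measurements.

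Cell cycle genes changed in single members. Of 39 cyclins, kinases and inhibitors 7 rose and 4 fell (median 0.13), beside 10.1% raised and 12.5% lowered of all tested genes. The falls of this list were near that share. *E2f2*, an E2F factor of erythroid divisions, rose from 57.2 and 64.1 to 162 and 160.1 CPM, and *Cdc25b*, an activating phosphatase, from 116 and 133 to 250.5 and 263 CPM. *Ccne1*, *Ccnd3* and *Ccnd2*, cyclins of G1, were at 0.84, 0.72 and 0.57. *Cdkn1b*, the inhibitor p27, fell from 23.4 and 21.5 to 8.77 and 11.4 CPM, *Ccng2* from 35.8 and 40.004 to 9.92 and 15.5 CPM and *Cdk6*, a kinase of G1, had a log2 fold change of -1.04. Of 47 genes of DNA replication 1 rose and 3 fell, both below those shares. Of 47 mitosis genes 4 rose, near that share, and none fell. The counts of both lists moved when single libraries were left out. With no limit on the fold change 21 mitosis genes rose and 5 fell, beside 2904 and 2906 of all 12329 tested genes. *Fen1*, a nuclease of lagging strand synthesis, rose from 125 and 125 to 208 and 210.0 CPM and *Mcm10* fell from 107 and 102 to 61.96 and 62.7 CPM.

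Of 36 genes of the BCL2 family, caspases and death receptors 4 rose and 3 fell, shares near the 10.1 and 12.5% of all tested genes. *Bcl2l1*, encoding the survival factor BCL-XL of erythroblasts, rose by 0.98 on the log2 scale, and *Bcl2l11*, encoding its opponent BIM, from 22.1 and 20.7 to 49.99 and 51.99 CPM. *Casp9* fell from 17.7 and 19.5 to 9.76 and 9.51 CPM. Among 25 p53 targets 1 rose and 3 fell, the falls near that share of all genes. The count that rose moved without KD replicate 2. *Cdkn1a*, which encodes the inhibitor p21, had a log2 fold change of 0.36.

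Genes of antioxidant defence gave 4 rises and 4 falls among 38 (median -0.03), shares near the 10.1 and 12.5% of all tested genes. *Nfe2l2*, encoding NRF2, the factor at the head of this response, fell 2.82-fold from 108 and 110.5 to 38.7 and 38.8 CPM (log2 fold change -1.50, standard error 0.08, adjusted p = 3.55e-10). Of its classical targets *Hmox1* fell, as given above, while *Nqo1*, *Gclm* and *Txnrd1* were at 0.05, -0.02 and 0.20, and of these 3 none was called. *Mgst3*, a glutathione transferase, rose from 11.9 and 14.99 to 78.1 and 74.6 CPM, *Prdx2* from 438 and 516 to 1083 and 1205 CPM, and *Gpx1* by 0.68 on the log2 scale, whereas *Cat*, catalase, was at -0.91. In autophagy and lysosome genes 7 of 47 rose, 11 without control replicate 2, and 6 fell, with all 4 libraries again near those shares. *Atg4a* fell from 25.9 and 25.8 to 6.87 and 7.21 CPM while its paralogue *Atg4d* rose from 67.3 and 72.8 to 119 and 122 CPM, and *Ctse*, cathepsin E, fell from 90.4 and 106 to 30.8 and 32.3 CPM.

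In large housekeeping groups few genes passed the limit on the fold change. Of 82 cytosolic ribosomal protein genes 1 rose and 1 fell (median 0.14), of 77 mitochondrial ones 1 and 1 (median 0.03), and of 77 subunits of oxidative phosphorylation 4 and 2 (median 0.23). Of 38 proteasome subunits none rose and 2 fell, and of 46 genes of ribosome biogenesis 2 rose and 2 fell. Among 51 translation initiation factors 2 rose and 2 fell. With all 4 libraries these shares lie under the 10.1 and 12.5% of all tested genes. Without control replicate 2 the genes that rose were 12 of oxidative phosphorylation, above that share of all genes, 4 of the cytosolic and 3 of the mitochondrial ribosomal proteins. Without KD replicate 1 they were 8, again above, 3 and 0. Without KD replicate 2 the mitochondrial ribosomal genes that rose were 3. The genes that fell in each of these 3 groups numbered 0 to 2 when 1 library was left out, and those of translation initiation that rose or fell 1 to 3. With no limit on the fold change, 38 genes of oxidative phosphorylation rose and 5 fell, 20 and 2 of the cytosolic and 19 and 11 of the mitochondrial ribosomal proteins, beside 2904 and 2906 of all 12329 tested genes. *Rpl22l1*, a paralogue of a ribosomal protein, fell from 43.7 and 49.7 to 22.02 and 29.4 CPM, and *Uqcrc2*, a core subunit of complex III, from 300.3 and 308 to 178 and 179 CPM. In 40 genes of chromatin silencing 4 fell and 2 rose, shares below those of all tested genes, but 1 and 0 without control replicate 1, and 1 rose without KD replicate 2. *Suz12*, a core subunit of Polycomb repressive complex 2, fell from 256 and 230.4 to 106 and 114 CPM, and its partners *Ezh2* and *Eed* were at -0.02 and -0.34.

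The KD of *Cbfa2t3*, which encodes the partner ETO2, was taken as the closest comparison by its target, and each KD has control libraries of its own. The *Gfi1b* KD, whose profile the study describes as very similar, was not compared here. A joint fit of both tables tested the difference of the log2 fold changes for 12719 genes, with the 2 hairpins of the *Cbfa2t3* KD averaged. The difference passed the same limits in 2124 genes (16.7%), higher in the *Irf2bp2* KD in 965 (7.59%) and lower in 1159 (9.11%). A difference of levels between the experiments was removed by each one's own controls, but experiment and hairpins differ with the target and cannot be told apart from it. *Cbfa2t3* itself had a log2 fold change of -1.26 in its own KD.

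Among genes of the erythroid programme the change in the *Irf2bp2* KD was the larger for some. For *Tal1* the log2 fold change was 1.34 beside 0.57 in the *Cbfa2t3* KD (difference 0.78, standard error 0.09, adjusted p = 1.59e-05). For *Tfrc* it was 1.85 beside 0.36. Of the 23 erythroid factors 6 were higher and 3 lower, and of 9 haem synthesis enzymes 3 were higher.

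Groups outside the erythroid programme differed too. Of the 38 ATF4 genes 14 were lower and 2 higher. *Chac1* was at -2.24 beside -0.14 (difference -2.09, adjusted p = 1.88e-07) and *Trib3* at -1.80 beside -0.17. In glycolysis 11 of 31 were lower and 2 higher, and among the NFAT, VEGF and hypoxia genes 11 of 27 were lower and 1 higher. *Bnip3* was at -1.23 beside 0.86 and *Slc2a1* at -0.95 beside 0.54, so that these 2 had opposite signs. In cholesterol metabolism 16 of 47 were higher and 3 lower, with *Ebp* at 0.67 beside -0.21 (difference 0.88, adjusted p = 4.34e-06). All 14 H2A genes were higher, with a median of 0.00 in the *Cbfa2t3* KD.

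Of the interferon-stimulated genes 9 of 32 were lower and 1 was higher. *Tgtp2* was at -2.75 beside -1.24 and *Ddx58* at -2.32 beside -0.74. *Irf7* was at -2.30 beside -0.11 (difference -2.19, adjusted p = 3.81e-05).

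Single genes differed widely. *Uap1* was at -2.54 beside 0.03, a difference of -2.57 (standard error 0.09, adjusted p = 3.24e-10). *Hmox1* was at -2.54 beside -0.32 and *Nfe2l2* at -1.50 beside 0.29 (differences -2.22 and -1.78). *Btg2* was at 2.98 beside 1.14, *E2f2* at 1.41 beside -0.21 and *S100a4* at 1.85 beside -2.07. For *Vim* both KDs were low, at -3.81 and -3.11, with a difference of -0.69 that passed the limits (adjusted p = 0.00708). *Aqp8* (3.89 and 3.83), *Rgs18* (-2.07 and -1.82) and *Rel* (-1.36 and -1.59) did not differ past the limits, with differences of 0.07, -0.24 and 0.23 and standard errors of 0.48, 0.18 and 0.25.

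**Figure D4:**
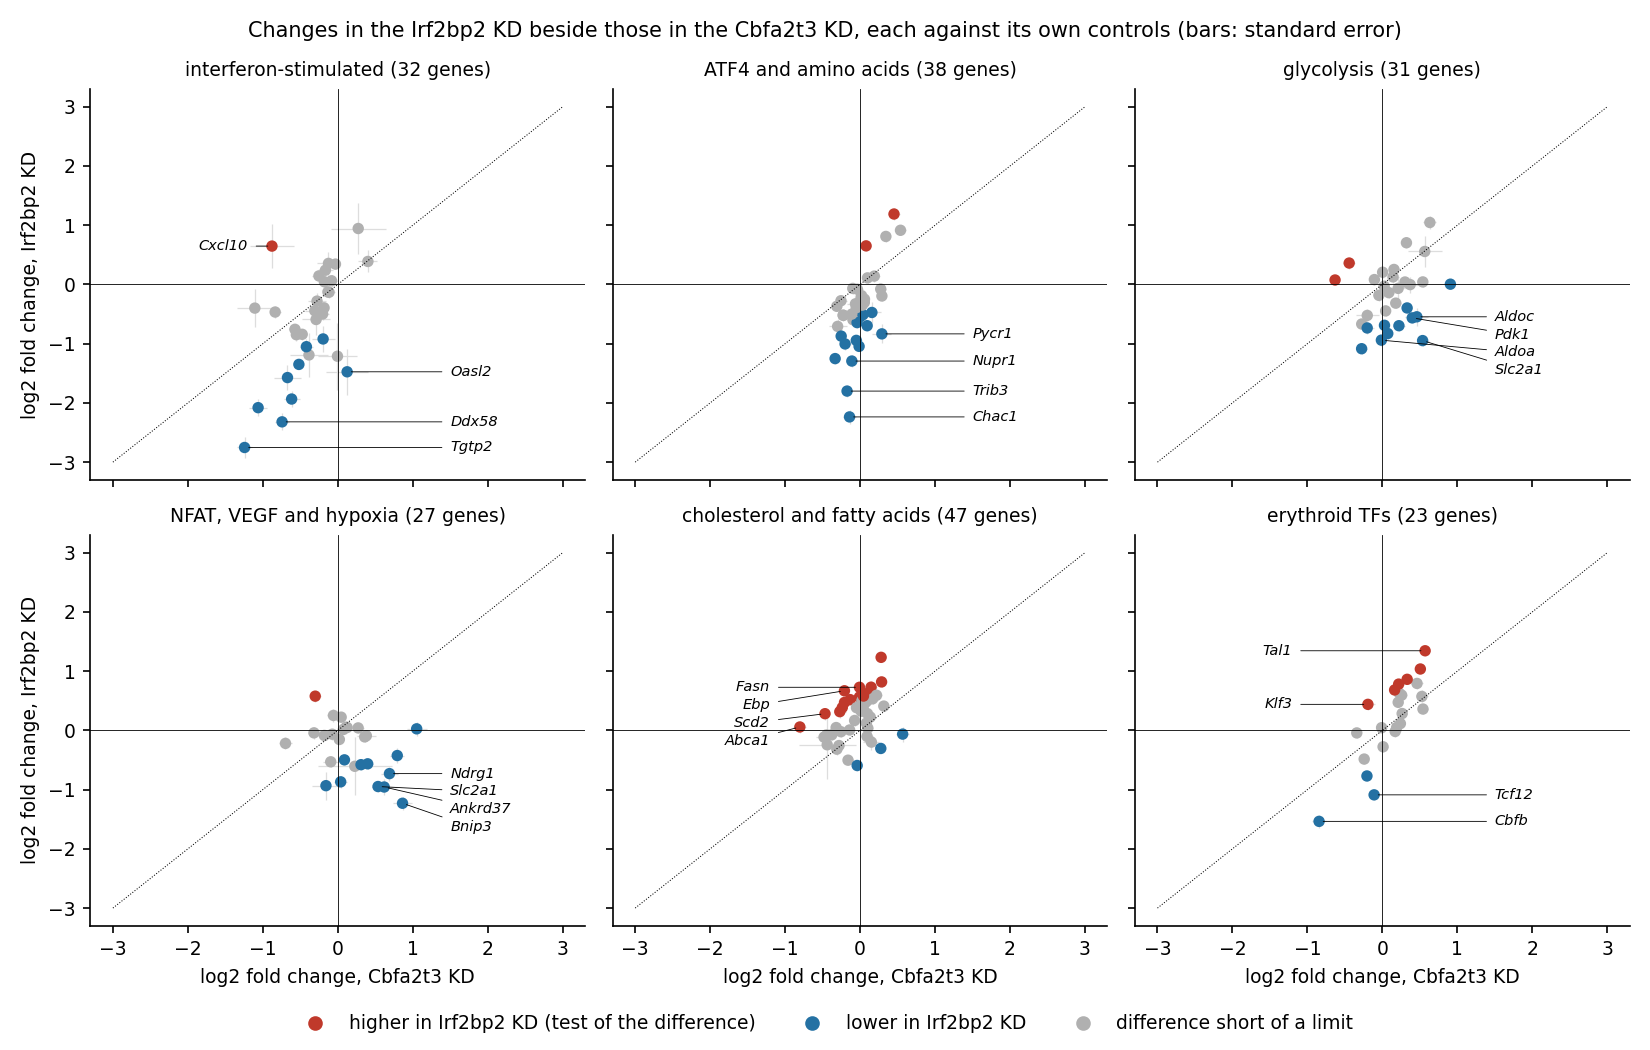
Log2 fold changes with their standard errors in the *Irf2bp2* KD (y axis) against those in the *Cbfa2t3* KD (x axis) for the members of 6 lists, each KD against its own controls; red and blue mark genes whose difference passed both limits, and the dotted line marks equal changes. Among the ATF4 and glycolysis genes 14 of 38 and 11 of 31 were lower in the *Irf2bp2* KD, and *Chac1* and *Trib3* stand at the bottom of their panel close to the vertical axis.

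The induced differentiation of MEL cells gives another set of values. The joint fit with these libraries passed the limits in 2494 of 12778 genes (19.5%; 10.5% higher and 9.03% lower in the *Irf2bp2* KD), but in only 466 to 574 when any 1 *Irf2bp2* library was left out, so it is used here for values side by side. *Tfrc* was at 1.85 in the KD and -0.59 on induction, *Ppbp* at 2.07 and -5.09 and *Bmpr2* at -2.09 and 0.57. *Slc4a1*, at 5.13 and 7.20, *Vim*, at -3.81 and -3.08, and *Myb*, at -0.85 and -2.02, had the same sign in both.

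Binding gives a measurement independent of the RNA. The list holds 11469 IRF2BP2 sites, 2730 of them shared with ETO2 and 8739 of IRF2BP2 alone, and 1760 sites of ETO2 alone. Each site was given to its nearest gene within 1 Mb, and 93.0% of the tested genes were found in the annotation of mm9. An IRF2BP2 site was assigned to 604 of 1181 raised genes, 51.1% (Wilson 95% interval 48.3 to 54.0%), to 668 of 1443 lowered genes, 46.3% (43.7 to 48.9%), and to 3498 of 8838 genes that were not called, 39.6% (38.6 to 40.6%). Both directions thus lay above the genes not called, with intervals that do not overlap. The intervals cover counting error only, genes are not independent replicates, and no test was made. Sites over a gene's start, within 5 kb of the TSS, were found at 33.7% of raised, 27.1% of lowered and 25.0% of other genes. Here the interval of lowered genes (24.9 to 29.4%) overlaps that of the others (24.1 to 25.9%).

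The share of raised and lowered genes was also taken for each class of site. Shared sites within 5 kb were held by 12.4% of raised genes (10.7 to 14.5%), 4.02% of lowered genes (3.12 to 5.16%) and 2.61% of the others (2.30 to 2.97%). IRF2BP2-only sites within 5 kb were held by 25.9, 25.1 and 23.5%, intervals that overlap. For the nearest gene within 1 Mb, such sites were at 40.2% of raised (37.5 to 43.0%), 41.0% of lowered (38.4 to 43.5%) and 35.8% of other genes (34.8 to 36.8%), and the intervals of both directions lie above that of the others. Within 5 kb, sites of ETO2 alone were at 4.91% of raised, 1.66% of lowered and 1.73% of other genes. The level of a gene moved with its share of sites, so the shares were also taken in 3 classes of the mean level of equal size. In the class of lowest level 44.3% of raised, 38.4% of lowered and 27.8% of other genes had a site, and in the class of highest level 63.6, 64.8 and 48.1%. In the middle class they were 45.6, 46.7 and 39.4%. The intervals of raised and lowered genes overlap in all 3 classes, and in the middle class that of raised genes also overlaps that of genes not called. Within 5 kb the shares were 24.2, 19.8 and 14.6% in the lowest class and 48.7, 42.2 and 33.8% in the highest. In both, raised and lowered genes lay above the others without overlap of intervals. In the middle class they were 28.0, 28.7 and 23.4%, with intervals that overlap.

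Near the TSS the share of sites with some motifs differed with the class of gene, and so did the share of sites shared with ETO2. Of the IRF2BP2 sites within 5 kb, 27.9% at raised, 11.6% at lowered and 8.77% at other genes were shared. The study reports the composite motif at sites of ETO2 and not at those of IRF2BP2 alone. Motifs were not counted apart by class of site, so the share of motifs cannot be told apart from that of shared sites. Of 577 IRF2BP2 sites within 5 kb of a raised gene 14.7% held the composite E-box/GATA motif shown above (12.1 to 17.9%), against 7.43% of 525 sites at lowered genes (5.48 to 9.99%) and 5.67% of 2873 at the others (4.89 to 6.58%). A GATA motif was in 50.3, 42.5 and 34.4%. At these sites within 5 kb the AP-1 motif was in 8.32, 9.71 and 8.01%, with intervals that overlap. A motif of interferon regulatory factors, GAAA followed after any 2 bases by GAAA, was in 3.12, 3.62 and 2.89%, also with intervals that overlap, beside 2.69% of all IRF2BP2 sites. At sites farther than 5 kb the composite motif was in 17.9% at raised (15.4 to 20.7%), 15.1% at lowered (13.0 to 17.6%) and 14.5% at other genes (13.5 to 15.7%), intervals that overlap, and the GATA motif in 69.2, 68.0 and 63.8%. The AP-1 motif was there in 15.7, 15.5 and 15.3%, and the motif of interferon regulatory factors in 1.79, 2.10 and 2.90%.

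**Figure D5:**
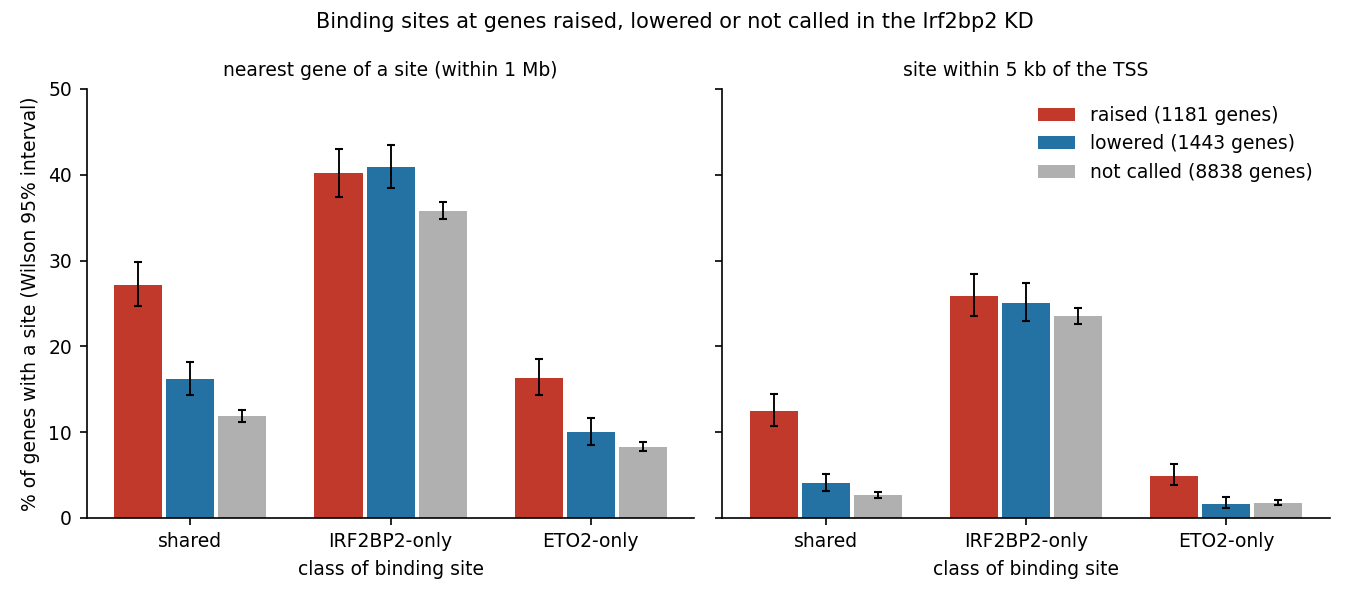
Share of raised, lowered and not called genes, in percent (y axis), with at least 1 site of each class (x axis), for the nearest gene within 1 Mb and for sites within 5 kb of the TSS; bars are shares and error bars Wilson 95% intervals. Shared sites within 5 kb separate raised genes, at 12.4%, from lowered genes, at 4.02%, while IRF2BP2-only sites do not, at 25.9 and 25.1%.

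In the gene groups the share of members with a site varied, and is to be read beside the 51.1% of all raised and 46.3% of all lowered genes with one. Of the 18 lowered ATF4 genes 15 had an IRF2BP2 site, 14 of them within 5 kb of the TSS and 4 with a shared site. *Trib3* carries 2 sites of IRF2BP2 alone upstream of its TSS, the one printed above and another 5986 bp away, and *Chac1* has 1 at 232 bp (6.50-fold). In glycolysis 8 of 11 lowered genes had a site, and *Pkm* holds 3 within 5 kb, enriched 4.38-, 4.57- and 7.86-fold. Of the 13 lowered interferon-stimulated genes 5 had a site, a share below that of all lowered genes. Of 16 raised cholesterol genes 10 had one. All 8 raised MAPK and early genes but 1 had a site, and *Btg2* has 8 listed sites, 3 of them shared. Of the 15 lowered cytoskeletal genes 11 had one, and at *Vim* 4 sites lie between 262 bp upstream and 1552 bp downstream of the TSS. Of the 25 raised histone genes 11 had a site, a share below that of all raised genes, and none a shared one. *E2f2* holds 6 sites within the gene, 1 of them shared.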

How the data were processed

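RNA-Seq libraries were made by the authors from total RNA of MEL cells and sequenced on a HiSeq instrument. According to the methods and the submitters' processing notes, reads were aligned to mm9 with Tophat2 (v2.0.10), and the deposited counts per gene and the authors' RPKM values (reads per length and library size) came from rpkmforgenes. The counts were used for every test, and RPKM values only to set genes side by side. Each *Irf2bp2* library held 44519414 to 52919258 counted reads. The deposited table also holds the authors' own fold changes and p-values, which were not used. The deposited list of binding sites gives mm9 positions found with peak callers and a fold (ratio) over IgG, computed by the authors, and 4 of its columns were not used. The tables of *Gfi1b* and *Lsd1* were not used here.

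Counts were analysed in edgeR 4.0.16 (R 4.3.3): genes with low counts were removed with filterByExpr, libraries scaled by TMM, and KD compared with control (n = 2 each) by the quasi-likelihood test over all 12329 genes. Changed genes had a Benjamini-Hochberg adjusted p of at most 0.05 and an absolute log2 fold change of at least 0.5. The biological coefficient of variation was 7.06%. Differences from the *Cbfa2t3* KD (2 hairpins, averaged) and from MEL differentiation were tested in joint fits with the same limits. The scripts were tested on simulated data. Sites were given to the nearest TSS of GENCODE M1, in which 93.0% of tested genes were found, and motifs were searched on both strands. Shares carry Wilson 95% intervals, which cover counting error only. Alternatives were DESeq2 (1.42.0), its size factors, other filters and fold limits, a replicate block and leaving out each library.

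Genes were named by rule: *Irf2bp2*, its family and complex; genes the study's text names; the 12 raised and 12 lowered genes with the largest fold change at 1 CPM or more whose groups did not overlap; the 6 with the largest difference in CPM in each direction; and in each list the 2 members with the largest rise and fall. Some genes that these rules name are not reported here. Further members of a list are named as examples after their values were seen. The members and lists were chosen with earlier results of these data known.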

Additional observations from a re-analysis of the deposited data

How the results depend on the processing

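Of the 2778 changed genes, 99.2% kept their call and direction with DESeq2's size factors in edgeR, 97.7% with no filter on low counts, 94.5% with at least 10 counts required in every library, and 87.4 and 84.1% in DESeq2 without and with a prior on the fold change. Leaving out 1 library gave 2557 to 3022 changed genes (1130 to 1446 raised, 1378 to 1576 lowered), and 83.1 to 91.0% of the 2778 calls were kept. The number moved with the limit on the fold change. Without it 5810 genes changed (2904 raised, 2906 lowered), and with a limit of 1 on the log2 scale 867 (341 raised, 526 lowered). The difference from the *Cbfa2t3* KD passed in 1935 to 2302 genes without 1 *Irf2bp2* library, and in 2028 and 2348 with sh2 or sh3 alone, but that from MEL differentiation in 466 to 574 instead of 2494, and the cause was not tested. With only sites at or above the median enrichment, 37.3% of raised and 31.7% of lowered genes had an IRF2BP2 site. Of 172 named genes called, 150 stayed past both limits under every alternative that gave a value, 22 lost the call at least once and none reversed. Low genes have no value where at least 10 counts are required, and 2 of 4 raised globin genes were then left. Of 1196 counts over lists under alternatives, 199 moved by more than 1.5 times. No scaling moved the median of all genes by over 0.1. With the replicate number as a block, 2834 genes changed (1263 raised, 1571 lowered), 2230 differed from the *Cbfa2t3* KD and 2994 from MEL differentiation. The numbers did not pair the samples, with a correlation of deviations of 0.0451 over 2 pairs. With 2 libraries a group, low genes are the least certain, since 3 counts correspond to 0.058 to 0.0676 CPM.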
